A study of Rattus norvegicus with 36 samples.

Results

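In the hippocampus, 1060 regions bound by phosphorylated CREB (pCREB) both overlapped a region bound by the glucocorticoid receptor (GR) and lay close to a further pCREB region. They were taken from 14722 pCREB regions listed for rat genome build rn6. A region was included when it lay on chromosomes 1 to 20 or X, shared at least 1 bp with a GR region, and had another pCREB region across a gap of at most 10 kb. The interval of chromosome 7 between 143.9 and 144.2 Mb was left out, which removed 8 pCREB regions, 4 of them overlapping GR. Of the 14681 regions that remained, 4220 overlapped GR, and 1060 of these (25.1%) were clustered. The other 3160 overlapping regions had no such neighbour and are called unclustered below. On the GR side, 1061 GR regions overlapped the clustered regions and 3169 overlapped unclustered ones.

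GR is a nuclear receptor that binds DNA when a glucocorticoid such as corticosterone, the main glucocorticoid of rats, occupies it. CREB is a transcription factor that is phosphorylated by kinases downstream of cyclic AMP and calcium and then recruits coactivators. Both are known for their part in hippocampal memory formation, and corticosterone given around a learning event is known to act through GR. A run of neighbouring binding sites is a common arrangement of enhancers and promoters.

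Chromatin came from male Sprague-Dawley rats in 4 conditions, namely trained with corticosterone, trained with vehicle, untrained with corticosterone and untrained with vehicle. Each condition had 4 libraries per antibody, A to D, each from 4 pooled hippocampi of 2 rats whose chromatin was divided between a GR antibody and a pCREB antibody. The series holds 36 samples, of which 16 are GR libraries, 16 are pCREB libraries and 4 are inputs, and signal was not compared with input here. The libraries of each condition carry their own lane number, so that lane and condition cannot be told apart. The labels and files used here state neither age nor training task. The hippocampus was measured as a whole, so that a change in the number of cells that hold a site and a change in binding per cell cannot be told apart. Regions are named by rn6 coordinates, and were not assigned to genes because no annotation of that build was used here.

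The libraries were shallow. Reads in regions numbered 55254 to 173176 per GR library and 143219 to 562249 per pCREB library. GR regions at clustered sites took 14.1% to 20.7% of the GR reads, and clustered regions took 5.46% to 9.84% of the pCREB reads. Peak calls were few in 3 GR libraries, with calls at 53, 70 and 72 clustered sites in untrained vehicle A, untrained vehicle B and untrained corticosterone B, against 412 to 960 in the other GR libraries. GR untrained vehicle B was also the shallowest. Among pCREB libraries, trained corticosterone A had calls at 134 clustered regions and untrained vehicle A at 198, against 664 to 1035 in the others. In the median clustered region, each GR library had 5 to 24 reads and each pCREB library 8 to 37, and such numbers carry a large counting error.

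Clustering was about as frequent among pCREB regions that overlapped GR as among the others. Of the overlapping regions 25.1% were clustered, against 23.2% of those without a GR overlap. Read the other way, 30.4% of clustered pCREB regions overlapped GR, against 28.2% of unclustered ones. The clustered share of overlapping regions was 37.4% on chromosome 12, which held 71 clustered regions, and 33.1% on chromosome 20. It was 18.6% on chromosome 2 and 16.3% on chromosome 14. The highest share, 37.5%, was on chromosome X, with 6 clustered and 10 unclustered regions. Among regions without GR overlap, 33.3%, 34.7%, 15.9% and 20.5% were clustered on chromosomes 12, 20, 2 and 14, and 20.9% on chromosome X. Chromosome 1 had the most clustered regions, with 89 beside 331 unclustered regions. These shares are descriptions, since neighbouring regions are not independent and no test was made of them.

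The gap to the nearest pCREB region ran from 11 to 9987 bp with a median of 4030 bp. It was at most 1 kb for 191 regions and at most 5 kb for 631. The 79 regions with a gap of 9 to 10 kb had a median of 316 GR and 113 pCREB CPM (normalised counts for a fixed library total) per kb of region, and the 67 overlapping regions with a gap of 10 to 11 kb had 294 and 106. Each antibody's CPM refer to reads in its own tested regions, so that GR and pCREB values per kb stand on separate scales. The last regions inside the limit were chr12:48355442-48356099, chr10:109380803-109381224 and chr12:39032143-39033056, with gaps of 9967, 9972 and 9987 bp and pCREB levels of 103, 253 and 116 CPM per kb. The first outside it were chr14:84553731-84554117, chr8:129810142-129810897 and chr9:69547544-69547985, with gaps of 10020, 10026 and 10048 bp and 97.4, 103 and 138 CPM per kb.

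Clustered and unclustered regions resembled each other in size and in their overlap with GR. Their median widths were 497 and 501 bp, and a median of 402 and 408 bp was shared with GR, which was 86.8% and 86.4% of the pCREB width. No clustered region shared less than 162 bp with its GR region, whereas the smallest overlap of an unclustered region was 42 bp. The median clustered region had a pCREB peak call in 13 of 16 libraries and the median unclustered region in 12. Calls in all 16 pCREB libraries were found at 67 clustered regions (6.32%) and 108 unclustered regions (3.42%). The GR regions at both kinds of site had a call in a median of 8 of 16 GR libraries. Among GR regions, 450 of 1061 at clustered sites and 66 of 3169 at unclustered sites had a GR neighbour within 10 kb, a difference that the choice of clustered pCREB regions partly fixes.

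The signal of clustered regions was a little higher for both antibodies. The median pCREB level was 114 CPM per kb at clustered regions (quartiles 99.3 and 139) and 110 at unclustered regions (quartiles 96.2 and 131). The median GR level was 310 CPM per kb at clustered sites (quartiles 268 and 368) and 296 at unclustered sites (quartiles 260 and 354). Within single libraries the clustered median exceeded the unclustered one in 16 of 16 libraries of each antibody. The ratio of the medians was 1.01 to 1.08 in GR libraries and 1.03 to 1.07 in pCREB libraries. The libraries measure the same regions, so that this count is not independent support. The spread between libraries was alike, with a median coefficient of variation of 26.2% at clustered and 26.6% at unclustered pCREB regions.

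**Figure D1:**
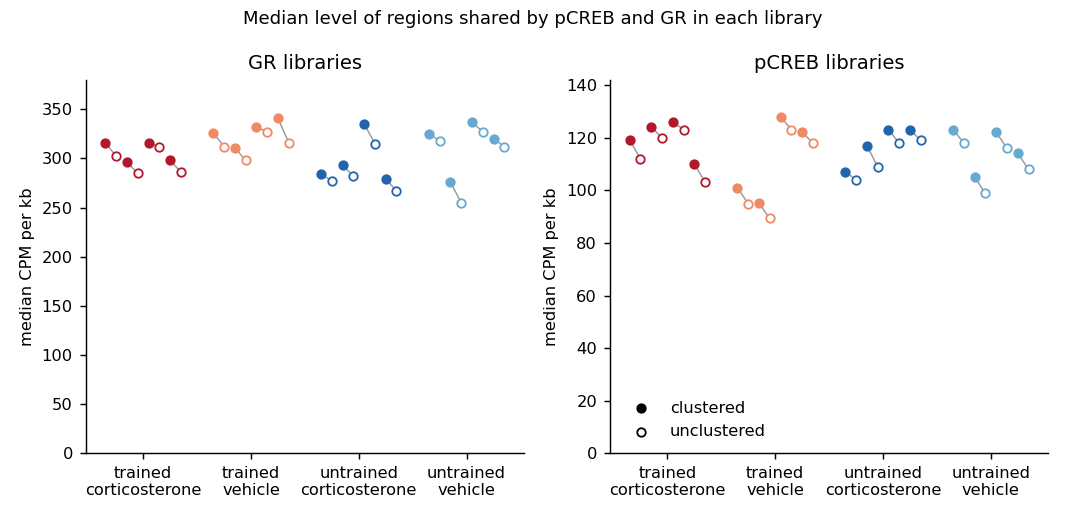
Median level of clustered regions (filled points) and unclustered regions (open points) in each GR library (left) and each pCREB library (right), in CPM per kb, by condition. A line joins the 2 medians of a library, and the filled point is the higher one in every library, by a ratio of 1.01 to 1.08 for GR and 1.03 to 1.07 for pCREB.

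By condition, the median level at clustered regions varied about as much between libraries of a condition as between conditions. For pCREB the clustered medians averaged 120 ± 7.14 CPM per kb in trained corticosterone, 112 ± 16 in trained vehicle, 118 ± 7.55 in untrained corticosterone and 116 ± 8.37 in untrained vehicle libraries (SD, n = 4 each). The GR medians averaged 306 ± 11, 328 ± 12.6, 298 ± 25.5 and 314 ± 26.6 CPM per kb in the same order of conditions. Each library was scaled to its reads in tested regions, which largely removes a change shared by most regions. These medians therefore cannot decide whether binding changed as a whole between conditions. A GR call in at least 3 of 4 libraries was present at 905 clustered sites in trained corticosterone, 429 in trained vehicle, 364 in untrained corticosterone and 69 in untrained vehicle libraries. The corresponding shares were 85.3%, 40.4%, 34.3% and 6.5% at clustered sites and 84.9%, 37%, 32% and 5.87% at unclustered sites. For pCREB, 776, 846, 957 and 594 clustered regions had such calls, or 73.2%, 79.8%, 90.3% and 56%, against 70.5%, 77.4%, 89.9% and 50.5% of unclustered regions. Single libraries limit these counts. Of the GR untrained vehicle libraries, A and B had calls at only 53 and 70 clustered sites and C and D at 743 and 489, so that calls in 3 of 4 libraries needed A or B. The untrained corticosterone count for GR, and the pCREB counts of trained corticosterone and untrained vehicle, each include 1 library with few calls.

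The level per kb was higher where the neighbour was nearer. Regions with a neighbour within 1 kb had a median of 327 GR and 123 pCREB CPM per kb. The medians were 318 and 117 at gaps of 1 to 2 kb, 310 and 116 at 2 to 5 kb, and 299 and 111 at 5 to 10 kb. Beyond the limit they were nearly flat, with 296 and 110 at 10 to 20 kb, 295 and 111 at 20 to 50 kb, and 296 and 108 over 50 kb. The pCREB median within 1 kb exceeded that at 5 to 10 kb in 16 of 16 pCREB libraries, by a ratio of 1.05 to 1.16. The GR median did so in 14 of 16 GR libraries, with ratios of 0.97 to 1.25. Among pCREB regions without GR overlap, the 495 with a neighbour within 1 kb had a median of 107 CPM per kb, and the bins of longer gaps had 94 to 97. The higher level per kb next to a close neighbour was therefore seen with and without GR overlap. Overlapping regions with a neighbour within 1 kb were also narrower. Their median width was 450 bp, against 517, 498 and 508 bp at 1 to 2, 2 to 5 and 5 to 10 kb. The part of width in the higher level per kb was not tested.

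**Figure D2:**
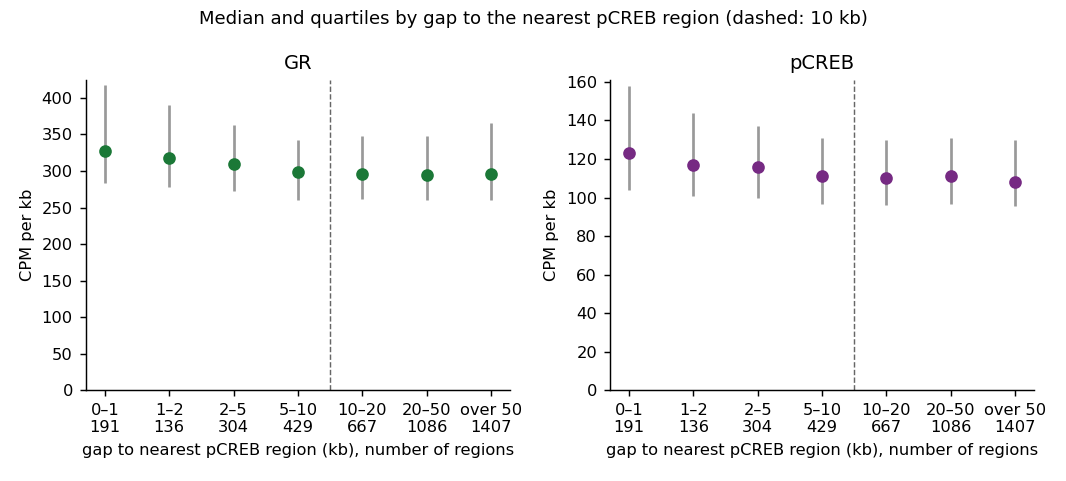
GR level (left) and pCREB level (right) of pCREB regions that overlap GR, in CPM per kb, by the gap to the nearest pCREB region, with the number of regions under each bin. Points are medians, vertical lines run between the quartiles and the dashed line marks the 10 kb limit; the medians are highest at gaps within 1 kb (327 for GR, 123 for pCREB) and change little beyond the limit.

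Linking pCREB regions across gaps of at most 10 kb gave 1568 chains, of which 820 held a clustered region with GR overlap. Most of these chains were short. They comprised 639 chains of 2 regions, 132 of 3, 35 of 4, 13 of 5 and 1 of 6, with a median span of 6339 bp. GR overlapped every region in 152 chains, and 599 chains had only 1 region with GR overlap. The remaining 221 chains with 2 or more held 461 of the 1060 regions. Levels were alike in chains of 2 and 3 regions and higher in chains of 4 and 5, which are few. The pCREB medians were 113, 114, 127 and 158 CPM per kb in chains of 2, 3, 4 and 5 regions, and the GR medians were 306, 308, 319 and 422. Chains of 5 held only 29 of the regions, of which 4 and 5 lay in the strong chains chr4:77447818-77463834 and chr1:55733686-55750923 described below. The chain of 6 had medians of 181 pCREB and 340 GR CPM per kb over 2 regions.

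The region with GR was usually the stronger pCREB region of a pair. In 492 chains of 2 regions only 1 region overlapped GR, and in 484 of them both were measured. The GR-overlapping region had the higher pCREB level per kb in 337 (69.6%), with medians of 111 CPM per kb at regions with GR and 95.2 at their neighbours. The median log2 ratio was 0.26. In single libraries the share was 57.9% to 69.8%. The region with GR was also the wider one in 319 chains, with median widths of 509 and 416 bp, and had more pCREB calls in 352 chains against 94 with fewer. Width and GR overlap thus moved together in these pairs, and the part of width in the result was not tested. The difference was not particular to chains. Unclustered regions had medians of 110 CPM per kb and 501 bp with GR overlap, and 95.9 CPM per kb and 448 bp without.

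Most clustered regions had moderate signal, and a few very strong ones stood apart. A pCREB level of at most 200 CPM per kb was found at 968 of the 1060 regions. More than 500 CPM per kb was reached by 15 clustered regions (1.42%) and 23 unclustered regions (0.728%). The strongest set lay on chromosome 4, in and near the chain described next, where 6 clustered regions held 8.99% of the pCREB CPM and 8.07% of the GR CPM of all clustered regions. Without them the median pCREB level of clustered regions was still 114 CPM per kb.

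The chromosome 4 chain chr4:77447818-77463834 had 5 pCREB regions over 16 kb, of which 4 overlapped GR. Its first region, chr4:77447818-77448488, had pCREB levels of 3912, 5036 and 12585 CPM per kb as the lowest, median and highest of 16 libraries. The GR region there had 8218, 11441 and 19299 CPM per kb. These were the highest mean levels of any clustered region for either antibody, 12075 ± 2710 for GR and 5565 ± 2076 for pCREB (SD, n = 16 each). The next regions, starting 1.71, 3.89 and 4.48 kb further on, had mean pCREB levels of 1934, 1792 and 2102 CPM per kb and mean GR levels of 4711, 4518 and 3823. The last region, chr4:77463052-77463834, had no GR overlap and a pCREB level of 147 CPM per kb. The fifth region was thus near the level of an ordinary region, and all 4 with GR overlap were far above it.

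Other chains were more even. In chr1:55733686-55750923 all 5 regions overlapped GR. Their pCREB levels were 478, 663, 690, 412 and 154 CPM per kb along the chain, with calls in only 9 libraries at the last region. In chr13:33502484-33508717, 3 of 4 regions overlapped GR, with pCREB levels of 565, 671 and 594 CPM per kb, and the first region, without GR, had 538. The chain with the most regions, chr19:56557012-56586131, had 6 across 29.1 kb, and GR overlapped a pair of them next to each other, at 134 and 227 CPM per kb. The 4 without GR ranged from 91.9 to 144. High pCREB signal within a chain was thus found with and without GR. A further strong region, chrX:36448472-36448945, had mean levels of 4013 ± 658 GR and 1269 ± 214 pCREB CPM per kb (SD, n = 16 each). At the low end, chr3:36610016-36610567 had 14.4, 52.9 and 107 pCREB CPM per kb as its lowest, median and highest values.

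**Figure D3:**
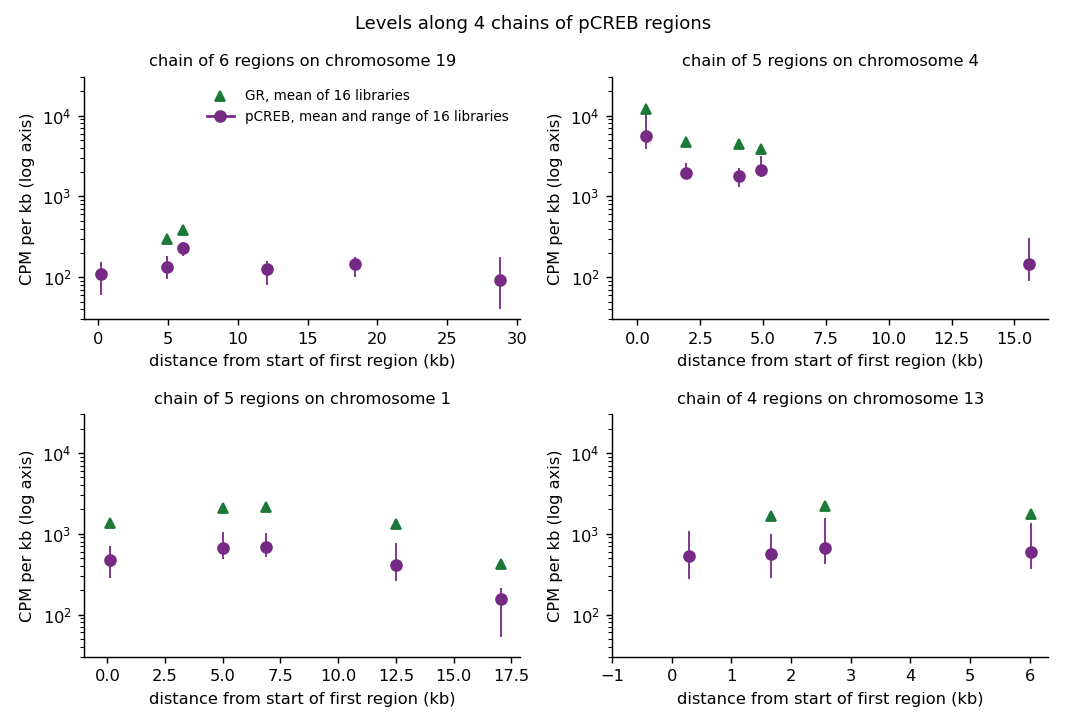
Levels along 4 chains of pCREB regions on chromosomes 19, 4, 1 and 13, plotted on a log axis of CPM per kb against distance in kb from the start of the first region. Circles and lines are the mean and range of 16 pCREB libraries and triangles the mean of 16 GR libraries, drawn only where a GR region overlaps; the first region on chromosome 4 reaches 12075 CPM per kb for GR and 5565 for pCREB.

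The design asks whether corticosterone changed GR binding at clustered sites. Averaged over trained and untrained rats, 4 of 1013 tested GR regions at clustered sites rose and 1 fell (edgeR's quasi-likelihood test, Benjamini-Hochberg adjusted p under 0.05). The background was 1.65% higher and 0.0201% lower among all 4968 GR regions tested, and 6 higher and 0 lower among the 3028 at unclustered sites. The share of clustered sites with a rise was 0.395%, and its difference from the background was not tested. DESeq2 called 4 higher and 2 lower at clustered sites, and 101 higher and 3 lower over all. An unadjusted p under 0.05 was found at 86 of 1013 clustered sites and at 619 of all 4968 GR regions. The median log2 fold change was -0.12 at clustered sites, -0.11 at unclustered sites and -0.07 over all tested GR regions. The clustered and overall medians were -0.03 and 0.02 without GR untrained corticosterone B, -0.03 and 0.01 without mitochondrial regions, and -0.06 and -0.01 with total counts. The clustered median was -0.07 without untrained corticosterone D or untrained vehicle A or C. The number of calls moved with single libraries: it was 22 (14 higher, 8 lower) without GR untrained vehicle B, where 311 higher and 24 lower were called among all 5071 GR regions tested. It was 2 without trained corticosterone A, B or D, trained vehicle C, untrained corticosterone D or untrained vehicle A or C, and 3 without trained vehicle A or D or untrained corticosterone A or B. Leaving out the 3 GR libraries with the fewest peak calls gave 13, beside 186 higher and 13 lower over all.

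The region with the largest rise was chr11:31424285-31424773. It had 233, 314 and 422 CPM as the lowest, median and highest of 8 corticosterone libraries, and 47.7, 106 and 172 CPM in 8 vehicle libraries. Every corticosterone library was above every vehicle library. The mean was 312 ± 64.8 CPM after corticosterone and 109 ± 45.9 CPM after vehicle (SD, n = 8 each), a 3.04-fold difference (log2 1.60, SE 0.23, edgeR adjusted p 0.00016). It held 24 to 58 reads in corticosterone libraries and 6 to 20 in vehicle libraries. The rise was similar in trained rats, at 305 ± 52.4 and 119 ± 40.7 CPM, and in untrained rats, at 319 ± 83.2 and 99.6 ± 54.8 CPM (SD, n = 4 each).

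At chr16:71597173-71597621 the values were 148, 255 and 368 CPM after corticosterone and 43.6, 108 and 178 CPM after vehicle. The groups overlapped through the lowest corticosterone library, untrained corticosterone C. The rise was 2.33-fold (log2 1.22, SE 0.25, edgeR adjusted p 0.00568). Both this region and the one on chromosome 11 kept their call in all 23 alternative fits, with adjusted p up to 0.0221 and 0.000842.

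The other 3 calls were less stable. GR signal at chr20:29814118-29814417 had 64, 131 and 204 CPM after corticosterone and 31.8, 58.9 and 119 CPM after vehicle, on 4 to 28 reads. It rose 2.19-fold (log2 1.13, SE 0.27, edgeR adjusted p 0.0271), with overlapping groups, and was called in 16 of 23 alternatives. At chr1:164508227-164508963, the deepest of the 5 regions, values were 483, 694 and 844 CPM after corticosterone and 221, 358 and 499 CPM after vehicle. The rise was 1.86-fold (log2 0.90, SE 0.23, edgeR adjusted p 0.0422), the groups overlapped slightly, and 12 of 23 alternatives kept the call. The region that fell, chr10:36884312-36884683, had 51.4, 93.1 and 108 CPM after corticosterone and 115, 151 and 218 CPM after vehicle. Its groups did not overlap, the log2 change was -0.86 (SE 0.22, edgeR adjusted p 0.0358), and 8 of 23 alternatives kept the call. Scaling to total counts gave an adjusted p of 0.0788 there.

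**Figure D4:**
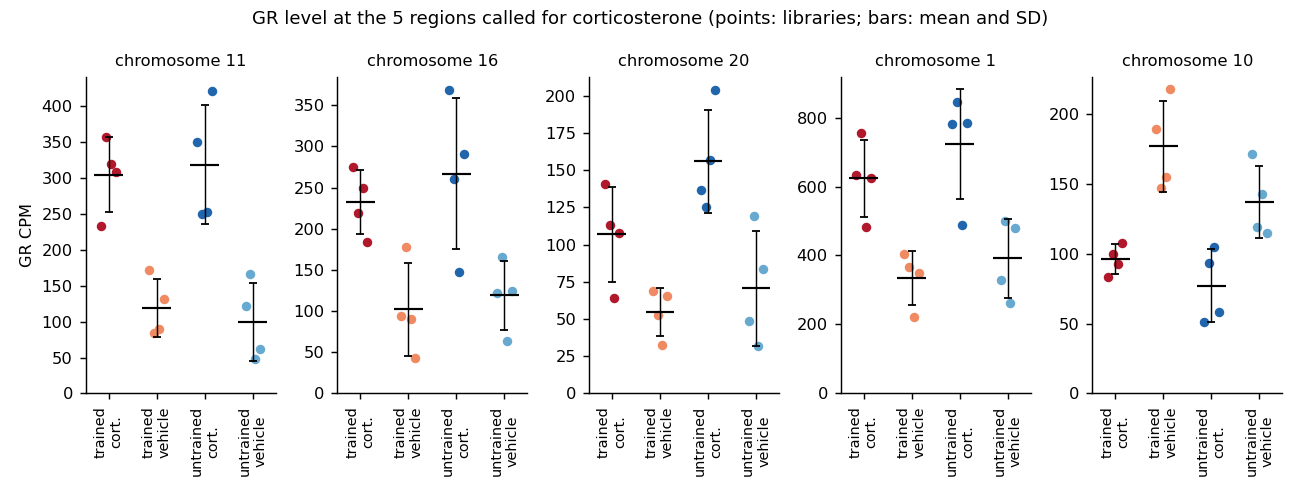
GR level in CPM of each library (points) at the 5 GR regions called for corticosterone at clustered sites, by condition, with mean and SD as black bars (n = 4 each). The regions on chromosomes 11, 16, 20 and 1 are higher after corticosterone in trained and untrained rats (for chromosome 11, means of 312 and 109 CPM over 8 libraries each), and the region on chromosome 10 is lower.

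In each of the 5 chains, the nearest pCREB neighbour of the called site did not overlap GR. This was common, since 599 of all 1060 clustered regions were the only region with GR overlap in their chain. The pCREB signal at the called sites was measured in separate libraries and did not pass the test at any of them. On chromosome 11 it was 36.7 ± 10.8 CPM after corticosterone and 24.7 ± 10.5 CPM after vehicle (log2 0.54, SE 0.26, edgeR adjusted p 0.84). On chromosome 20 it was 27.5 ± 6.68 CPM and 18.1 ± 7.06 CPM (log2 0.59, SE 0.25, edgeR adjusted p 0.84; SD, n = 8 each). The pCREB log2 change was 0.35 on chromosome 16, 0.36 on chromosome 1 and -0.12 on chromosome 10, each with an adjusted p of at least 0.84. At the nearest neighbours the pCREB log2 changes were 0.02, -0.03, 0.23, -0.26 and 0.15 on chromosomes 11, 16, 20, 1 and 10. The 4 GR regions that rose had positive pCREB estimates at the same place, none of which passed the adjusted test. Positive pCREB estimates were also found at 62.6% of all 1059 clustered regions tested.

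No corticosterone effect on pCREB binding passed the test. By edgeR's adjusted p, 0 of 1059 clustered and 0 of 3152 unclustered regions were called, with a background of 0% of 14553. DESeq2 also called 0. An unadjusted p under 0.05 was found at 36 of the clustered regions and at 709 of all 14553. The median log2 fold change was 0.05 at clustered regions, 0.07 at unclustered regions and -0.00 over all tested pCREB regions. At chr14:7107257-7107997, the clustered region with the smallest p, the level was 79 ± 20.5 CPM after corticosterone and 51.3 ± 10.8 CPM after vehicle (log2 0.65, SE 0.19, edgeR adjusted p 0.84; SD, n = 8 each). At chr6:9599297-9599905 it was 74.2 ± 15 and 51.1 ± 10.8 CPM, and at chr3:94144610-94145304 it was 78.1 ± 14.7 and 50.2 ± 13.4 CPM. The median SE of the log2 change at clustered regions was 0.209.

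No training effect passed the test for either antibody at clustered sites. For pCREB, DESeq2 called 0 clustered regions, and 2 higher among all 14722. In edgeR 0 of 1059 clustered pCREB regions passed, with a background of 0%. An unadjusted p under 0.05 was found at 22 of them and at 417 of all 14553. The smallest p was at chr5:105529351-105529648, with 25.1 ± 10.2 CPM in trained and 37.2 ± 7.93 CPM in untrained libraries (log2 -0.64, SE 0.22, edgeR adjusted p 1; SD, n = 8 each). The low values there were mainly in trained corticosterone libraries, with a mean of 16.6 CPM. Means were 33.7 in trained vehicle, 37.2 in untrained corticosterone and 37.1 in untrained vehicle libraries. For GR, DESeq2 called 0 regions at clustered sites, and 1 higher among all 5307. In edgeR 0 of 1013 GR regions at clustered sites passed, with a background of 0%. An unadjusted p under 0.05 was found at 35 of them and at 178 of all 4968. Here chr10:75291146-75291478 had 110 ± 30.7 CPM in trained and 57.1 ± 26.2 CPM in untrained libraries (log2 1.03, SE 0.25, edgeR adjusted p 0.682). The median log2 changes with training were 0.03 for GR and -0.01 for pCREB at clustered sites.

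No difference in the corticosterone response between trained and untrained rats passed the test. The interaction passed at 0 of 1013 GR regions and 0 of 1059 pCREB regions at clustered sites by edgeR and by DESeq2, and the background was 0% for both antibodies. An unadjusted p under 0.05 was found at 40 clustered GR regions and 184 of all 4968, and at 24 clustered pCREB regions and 480 of all 14553. The smallest p for GR was at chr15:106337307-106337887. GR there was 158 ± 37.6 CPM in trained corticosterone and 98.7 ± 53.2 CPM in trained vehicle libraries, against 93.7 ± 16.5 CPM in untrained corticosterone and 178 ± 57.2 CPM in untrained vehicle libraries (SD, n = 4 each). The interaction on the log2 scale was 1.62 (SE 0.49, edgeR adjusted p 1). For pCREB the smallest p was at chr1:55994421-55994777, where it was 1.12 (SE 0.41, edgeR adjusted p 0.999).

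A joint model of both antibodies, with the pool of rats as a block, tested where GR and pCREB stood in unequal proportion. It used 1053 clustered regions that paired one to one with a GR region, among 4225 tested, with counts corrected for region width. GR was higher relative to pCREB at 49 clustered regions and lower at 83 (edgeR adjusted p under 0.05), together 12.5%. The background was 5.7% higher and 6.04% lower over all tested regions. Unclustered regions had 188 higher and 170 lower of 3149, together 11.4%. The balance depended on scaling: scaling to total counts gave 33 higher and 114 lower at clustered regions, and 177 higher and 374 lower over all. Without the width correction 121 were higher and 178 lower, and 509 higher and 612 lower over all. The median log2 ratio was -0.03 at clustered regions, 0.00 at unclustered regions and -0.00 over all. A ratio of this kind is relative to the average shared region and gives no absolute occupancy.

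Regions called in opposite directions differed in width and in peak calls. The 49 with relatively more GR had a median pCREB width of 363 bp, calls in a median of 11 GR and 11 pCREB libraries, and a median difference of 1.51-fold, up to 5.44-fold. The 83 with relatively more pCREB had a median width of 628 bp, calls in a median of 8 GR and 15 pCREB libraries, and a median difference of 1.45-fold, up to 3.13-fold. The 921 without a called difference had a median width of 495 bp and peak calls in a median of 8 GR and 12 pCREB libraries. The median widths of their GR regions were 350, 415 and 425 bp in the same order. Peak calls and the test rest on the same reads, and both widths enter the tested ratio. Neither the peak calls nor the widths are therefore independent support. Only 2 chains held 2 called regions, and in 1 of these both were lower.

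The values of both antibodies were fully separate at 2 of 1053 clustered regions. The background was about the same, with 8 of all 4225 tested regions (0.189%). At chr5:74507805-74508151 GR had 346, 730 and 2458 width-corrected CPM as the lowest, median and highest of 16 libraries, and pCREB had 42.3, 122 and 225. GR was higher in 16 of 16 pools, by 5.44-fold (log2 2.44, SE 0.14, edgeR adjusted p 4.86e-25). The opposite case was chr5:63781259-63782064, an 806 bp pCREB region whose neighbour lay 771 bp away. There GR had 144, 252 and 409 and pCREB 496, 765 and 1254 width-corrected CPM, so that GR was lower in 16 of 16 pools (log2 -1.64, SE 0.12, edgeR adjusted p 3.32e-20).

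Of the 8 other regions shown, chosen after their values were seen as the next by fold in each direction, 4 had relatively more GR. At chr10:55683572-55684024 GR had 273, 751 and 2724 and pCREB 112, 240 and 466 width-corrected CPM (log2 1.85, SE 0.13, edgeR adjusted p 1.79e-18). The site chr1:164508583-164508883, whose GR region was among those that rose after corticosterone, had 178, 400 and 766 for GR and 54.8, 156 and 280 for pCREB (log2 1.44, SE 0.13). GR there was the higher one in 16 of 16 pools although the ranges overlapped. The log2 ratios were 1.80 at chr1:46551629-46551889, where the lowest pCREB library had 0 reads, and 1.43 at chr1:128831351-128831830.

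On the pCREB side, chr18:18079467-18080024 had 152, 238 and 462 width-corrected CPM for GR and 301, 643 and 976 for pCREB (log2 -1.36, SE 0.11, edgeR adjusted p 2.7e-17). Its pCREB call was present in 16 of 16 libraries. At chr2:30345477-30346477 the pCREB region of 1001 bp covered a GR region of 203 bp, and the log2 ratio was -1.30 with width correction and -3.38 without. The ratios were -1.18 at chr1:226435504-226436006 and -1.17 at chr13:113762092-113762883. All 10 regions kept their call and direction in the 22 alternatives computed for them.

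**Figure D5:**
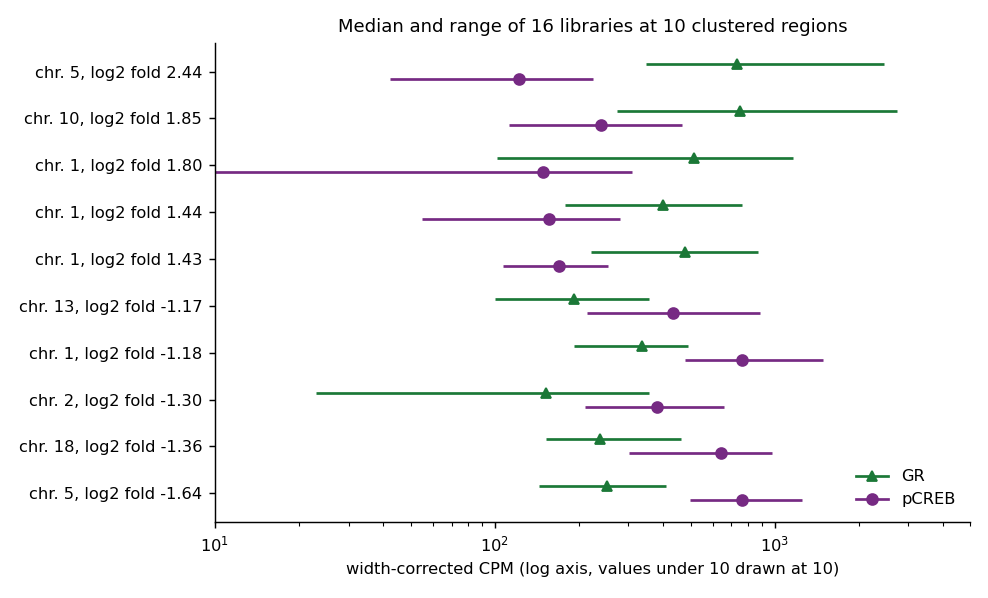
Width-corrected CPM on a log axis at 10 clustered regions with a called difference between GR and pCREB, ordered by log2 fold change from 2.44 (top) to -1.64 (bottom). Triangles and circles are medians of 16 GR and 16 pCREB libraries and lines their ranges; the ranges are separate at the top and bottom regions, both on chromosome 5.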

How the data were processed

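The submitters' processing notes name HTSeq 0.6.1-1, bedtools 2.26.0, MACS2 2.1.1.20160309 and BWA 0.7.10, and build rn6. What each did, and with which parameters, is not given in the sources used here. Raw, whole-number read counts were deposited, with separate region lists for GR and pCREB and the peak calls of each library beside them. A region is listed because peaks were called in these libraries, so the choice of regions and the tests share data.

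In R 4.3.3, edgeR 4.0.16 tested the counts by quasi-likelihood (TMM scaling, filterByExpr), with 1 model of 4 conditions per antibody over all regions, and with DESeq2 1.42.0 as an alternative. Benjamini-Hochberg adjustment covered all regions tested, and an adjusted p under 0.05 was called. The joint model of GR and pCREB divided counts by region width before scaling and had the pool as a block. The SE is the log2 fold change divided by the square root of F. CPM are relative to reads in tested regions. Tests were checked on simulated data. Replicates are separate pools of rats. Members and lists were chosen with earlier results of these data known. For condition contrasts, regions were chosen for naming from those called, or from the 3 with the smallest p where none was called. For GR against pCREB, called regions with separate values and high signal were chosen, and further regions by fold were added. The chains with the most regions or largest signal, the strongest and weakest regions and those next to the 10 kb limit were also chosen.

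GR and pCREB libraries of a pool are paired by the protocol. The letters A to D were not taken to pair libraries across conditions. Deviations of same-letter libraries correlated at -0.17 to 0.49 for GR (median 0.05) and -0.3 to 0.47 for pCREB (median 0.1) over 24 pairs each. Between the antibodies within a pool, the correlation was -0.04 to 0.31 (median 0.09, 16 pairs). Pairs fixed by the protocol thus had a similar median, so these correlations cannot decide whether libraries of one letter belong together. No pair of libraries within a condition was a duplicate (lowest chi-square per degree of freedom 1.79 for GR and 1.3 for pCREB). Pairs across conditions were not checked. Gene lists and sequence motifs were not analysed because no rn6 genome or annotation was used here.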

Additional observations from a re-analysis of the deposited data

Results flagged for a closer look

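Groups of 4 libraries were examined for a library far from the other 3 at 164 combinations of region and condition, and 6 stood out; chance gives about 1 in 20. The largest value was pCREB trained corticosterone A with 12585 CPM per kb at chr4:77447818-77448488, where the other 3 libraries had 3912 to 5295. pCREB untrained vehicle A had 1658 CPM per kb at chrX:36448472-36448945, against 1114 to 1180 in the others. pCREB untrained vehicle C had 74.9 CPM per kb at chr17:13637951-13638305, against 36.9 to 38.6. In the joint model, GR untrained vehicle B had 1158 width-corrected CPM at chr1:46551629-46551889, against 168 to 221. GR untrained corticosterone C had 400 at chr1:164508583-164508883, against 725 to 766. GR trained corticosterone A had 51.8 at chr2:30345477-30346477, against 140 to 150. GR untrained vehicle B and pCREB untrained vehicle A and trained corticosterone A were among the libraries with few peak calls, and the part of this in the values was not tested.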

How the results depend on the processing

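The 0 calls for pCREB (corticosterone, training, interaction) and for GR (training, interaction) at clustered sites stayed at 0 in every alternative run. The GR corticosterone calls numbered 5, and 2 to 22 in fits that left out 1 library. They were 13 (9 higher, 4 lower) when the 3 GR libraries with the fewest peak calls were left out, an alternative added after seeing the data, and 5 with scaling to total counts. Letters A to D as a replicate block gave 6 calls (5 higher, 1 lower) and changed no other count of calls from 0. Regions called higher or lower for GR against pCREB numbered 132, and 98 to 127 in fits without 1 pool. They were 299 without width correction, 107 with no replicate block, 90 by DESeq2, 118 without the pools with few peak calls and 84 with a neighbour within 5 kb. The 5 kb limit gave 631 clustered regions and a 20 kb limit 1727. The ratio of clustered to unclustered median pCREB levels was 1.04, and 1.08 without division by width. Of 335 alternative values for named regions, 302 kept direction and call, 33 lost the call and 0 reversed. Of the 335, 220 were for GR against pCREB, and 0 of these lost the call. All 33 losses were therefore among the 5 GR regions called for corticosterone. The median log2 training effect of all GR regions was 0.09 with total counts and -0.01 with TMM scaling. Few reads per region limit all single-region values.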
